A study of Mus musculus with 9 samples.

Results

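The genes described are 10 mouse genes of the glucocorticoid response around Fkbp5: Nr3c1, Hsd11b1, Fkbp5, Tsc22d3, Zbtb16, Klf9, Dusp1, Errfi1, Sgk1 and Pdk4. They were chosen by name, with their CS minus air values already known, and were found on the arrays as non-control probes that carry a RefSeq accession of 1 of them. This gave 14 probes of 56605, for 10 genes of 22911 that could be named. All 14 probes were well above background on all 9 arrays, and all 14 passed the filter on dim probes.

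The arrays measured total RNA of whole lung from male C57BL/6J mice, 12 weeks old at the start, after 6 months of exposure. One group breathed 3.5% IQOS aerosol, IQOS being a device that heats tobacco without burning it, one breathed 3.5% cigarette smoke (CS), and the control group breathed fresh air, with 3 one-colour Agilent arrays in each group. The labels give no genetic change or other agent in any group. They also do not say that each array is a separate mouse, so a p-value here measures the spread between these samples, which may be technical. Levels are log2 signals relative to the 75th percentile of the same array, so 0 is that percentile and 1 unit is a doubling. All 10 genes of a list of lung markers were well above background on all 9 arrays. The 75th percentile signal was 973.3 to 1098.1 units, 64.3% to 68.8% of probes per array were well above background, and no spot was saturated. The IQOS arrays lay on 1 slide and the CS and air arrays on another, scanned separately, so slide and IQOS cannot be told apart in any comparison with IQOS. On their slide the CS arrays lay in row 2, with air replicate 3, and air replicates 1 and 2 in row 1. The IQOS arrays all lay in row 1 of their slide, so only the air group spans both rows. A fit with the array row takes the row effect from the 3 air arrays alone. A call lost in that fit therefore cannot tell row from exposure. In whole-lung RNA, fewer cells of a type and less RNA per cell cannot be told apart.

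Glucocorticoids such as corticosterone, the main one in mice, bind the glucocorticoid receptor, which is held in the cytoplasm by heat shock proteins and their cochaperones. The hormone-bound receptor moves to the nucleus, where it activates genes near glucocorticoid response elements and represses many inflammatory genes. Fkbp5 encodes a cochaperone that lowers the receptor's affinity for hormone and is itself a receptor target, which makes it a widely used marker of receptor activity. In lung, glucocorticoids are best known for maturing the epithelium before birth and for restraining inflammation.

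The promoters of 8 of the 10 genes were matched in RefSeq (build GRCm38.p6), in 16 windows of 250 bases directly upstream of annotated starts. The windows below are of the cochaperone Fkbp5, the kinase Sgk1 and the leucine zipper protein Tsc22d3, the targets described first, and of the phosphatase Dusp1. They are 5′ to 3′ on the gene's strand: Fkbp5 at chr17:28486150-28486399 (minus strand), Sgk1 at chr10:21993640-21993889 (plus strand, 1 of several annotated starts), Tsc22d3 at chrX:140600523-140600772 (minus strand, likewise) and Dusp1 at chr17:26508473-26508722 (minus strand). Capitals mark any match, on either strand, to the glucocorticoid half-site AGAACA, the full glucocorticoid response element (AGAACA, any 3 bases, then its reverse complement TGTTCT), the E-box CACGTG, the cyclic AMP response element TGACGTCA or the TATA box TATAAA.
Fkbp5: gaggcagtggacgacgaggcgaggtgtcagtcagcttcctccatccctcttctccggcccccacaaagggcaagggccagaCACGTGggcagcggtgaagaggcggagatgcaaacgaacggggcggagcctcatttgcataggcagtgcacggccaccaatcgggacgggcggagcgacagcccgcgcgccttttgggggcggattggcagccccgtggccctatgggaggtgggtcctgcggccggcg
Sgk1: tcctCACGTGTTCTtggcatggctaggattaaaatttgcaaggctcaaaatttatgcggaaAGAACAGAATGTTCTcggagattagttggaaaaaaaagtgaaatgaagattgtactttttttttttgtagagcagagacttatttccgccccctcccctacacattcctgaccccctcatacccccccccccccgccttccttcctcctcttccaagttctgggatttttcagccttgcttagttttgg
Tsc22d3: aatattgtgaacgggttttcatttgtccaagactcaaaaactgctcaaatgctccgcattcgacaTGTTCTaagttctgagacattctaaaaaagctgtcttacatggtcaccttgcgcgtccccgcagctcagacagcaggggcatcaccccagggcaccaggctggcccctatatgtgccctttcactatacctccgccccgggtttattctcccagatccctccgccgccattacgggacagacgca
Dusp1: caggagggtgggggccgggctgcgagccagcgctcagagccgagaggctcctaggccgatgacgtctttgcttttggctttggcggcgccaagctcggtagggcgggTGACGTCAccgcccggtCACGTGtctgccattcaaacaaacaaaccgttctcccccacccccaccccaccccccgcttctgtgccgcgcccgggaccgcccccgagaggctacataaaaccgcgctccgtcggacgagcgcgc
The full response element was found in 3 of 32851 mouse windows of this length (0.00913%), 1 of them the Sgk1 window shown, as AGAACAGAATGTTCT from 189 to 175 bases before the start. The half-site, present in 16.1% of all windows, was found in 4 of the 16 windows, of Sgk1 and Tsc22d3. In the Sgk1 window shown, 1 half-site overlaps the E-box and 2 lie within the response element. The E-box, the site bound by clock transcription factors, was found in 3 of the 16 windows (Fkbp5, Sgk1 and Dusp1) against 6.02% of all windows. The cyclic AMP response element, in 1.55% of all windows, was found in 2 of the 16, of Dusp1 and Errfi1. The TATA box, in 12.4% of all windows, was found in 3 of the 16, of Sgk1 and Errfi1. Sgk1, Tsc22d3 and Errfi1 have several windows each, and so more places for a match, and some of these windows hold none. These are letter matches within the windows and not measured binding.

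The receptor and its local supply of hormone come first. Nr3c1, the glucocorticoid receptor, measured 3.94, 3.93 and 3.91 in IQOS lungs, 4.01, 4.0 and 4.03 in CS lungs, and 4.21, 4.20 and 4.07 in air lungs on its brighter probe. The IQOS values lay below all CS values, and the CS values below all air values. IQOS minus air was -0.23 ± 0.06 (SE; 0.854-fold; limma adjusted p = 0.0689) and CS minus air was -0.14 ± 0.06. The dimmer Nr3c1 probe measured 3.38, 3.19 and 3.19 in IQOS lungs, 3.41, 3.42 and 3.52 in CS lungs, and 3.75, 3.79 and 3.68 in air lungs, in the same order. On that probe IQOS minus air was -0.49 ± 0.07 (SE; limma adjusted p = 0.0178), past the threshold of 0.05. CS minus air was -0.30 on that probe and was also called, a call lost in some fits with 1 array left out. The call of the dimmer probe in IQOS did not hold without air replicate 1 (adjusted p = 0.0798), air replicate 3 (0.051), IQOS replicate 2 (0.0705) or IQOS replicate 3 (0.0544). With the mean of both probes Nr3c1 passed in IQOS at -0.36 (adjusted p = 0.0328).

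Hsd11b1, the enzyme that regenerates active glucocorticoid from its inert form inside cells, differed little. It measured 4.87, 4.91 and 4.66 in IQOS lungs, 4.95, 4.97 and 5.05 in CS lungs, and 4.97, 5.0 and 4.84 in air lungs. All IQOS values lay below all CS values, and the air values overlapped both. IQOS minus air was -0.12 (95% interval -0.32 to 0.07; limma adjusted p = 0.428), and CS minus air was 0.05.

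Fkbp5 had the largest differences from air among the 10 genes. Its brighter probe measured 3.87, 3.70 and 3.26 in IQOS lungs, 3.88, 3.82 and 3.65 in CS lungs, and 1.83, 2.43 and 2.19 in air lungs. Every exposed array was above every air array, and the IQOS and CS values overlapped. The group means were 3.61 ± 0.32 in IQOS, 3.79 ± 0.12 in CS and 2.15 ± 0.30 in air (SD, n = 3 each). Fkbp5 rose in IQOS by 1.46 ± 0.19 (SE; 2.75-fold; limma adjusted p = 0.0121). The CS minus air difference, on which the gene was chosen, was 1.64 ± 0.19 (3.11-fold). The IQOS difference uses the same air arrays, so its p is a description and not an independent test. Whether IQOS values also entered the choice is not recorded. IQOS minus CS was -0.18 (95% interval -0.61 to 0.26; limma adjusted p = 0.581), a range that leaves room for a difference of either sign.

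The Fkbp5 call in IQOS was close to its threshold. Without air replicate 1 the difference was 1.30 (adjusted p = 0.0523), and without IQOS replicate 2 it was 1.42 (adjusted p = 0.0561). The dimmer Fkbp5 probe measured 0.46, -0.56 and -0.65 in IQOS lungs, 0.43, 0.38 and -0.24 in CS lungs, and -1.16, -1.04 and -0.30 in air lungs. On this probe the IQOS and air groups overlapped, while all CS values were above all air values. Its IQOS minus air difference was 0.58 ± 0.35 (SE; limma adjusted p = 0.375) and its CS minus air difference was 1.02, neither of them called. With both probes averaged, Fkbp5 did not pass in IQOS (1.02, adjusted p = 0.0833).

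**Figure D1:**
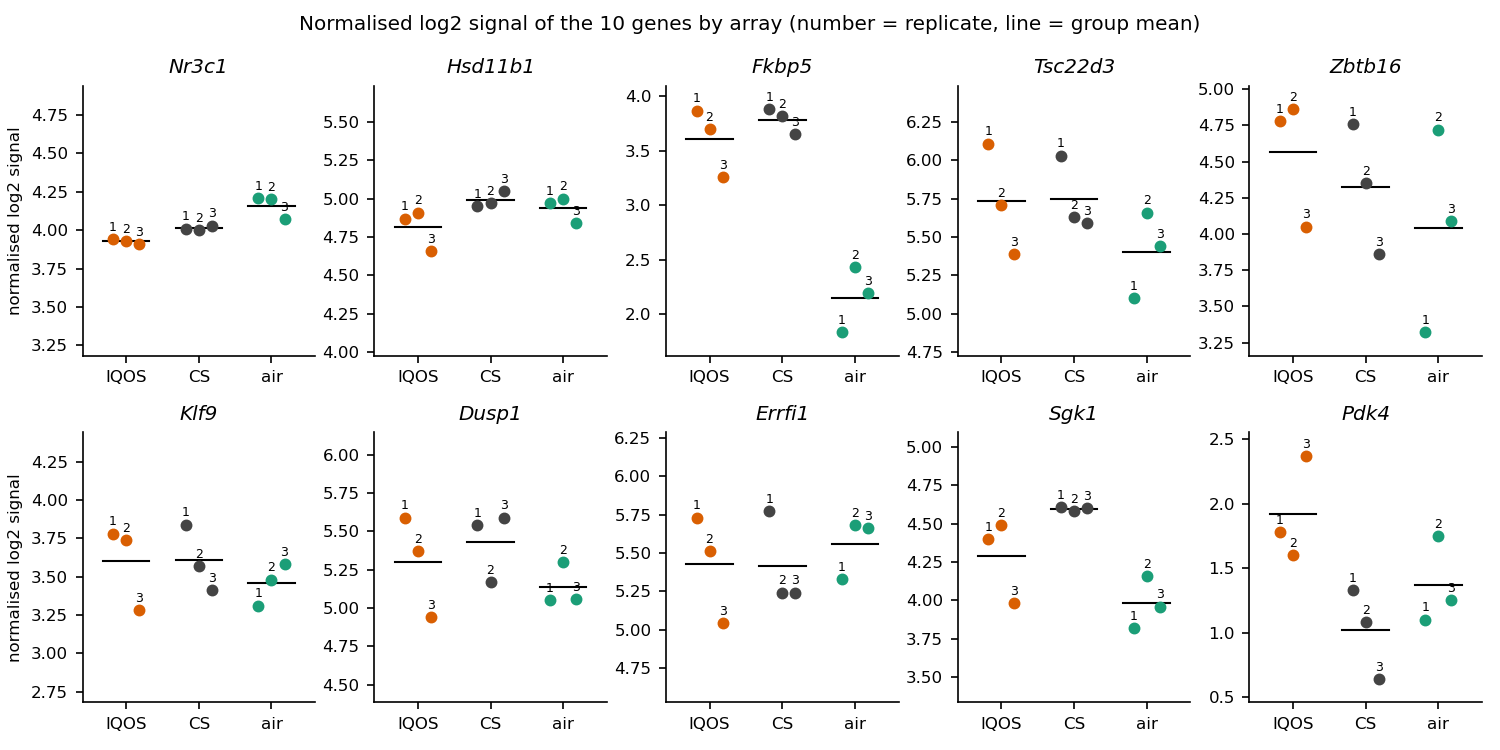
Normalised log2 signal of the brightest probe of each of the 10 genes (y axis, each panel with its own range of log2 units) in IQOS, CS and air lungs (x axis). Each point is 1 array with its replicate number and each line is the mean of 3 arrays. For Fkbp5 the lowest exposed array, at 3.26, is above the highest air array, at 2.43.

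Sgk1, a kinase that raises sodium uptake and cell survival, was called against air in CS but not in IQOS. It measured 4.40, 4.49 and 3.98 in IQOS lungs, 4.61, 4.58 and 4.60 in CS lungs, and 3.82, 4.16 and 3.96 in air lungs. The CS arrays were nearly identical and above all others, and IQOS replicate 3 fell within the air range. CS minus air was 0.62 ± 0.14 (SE; 1.53-fold), a call lost in some fits with 1 array left out. IQOS minus air was 0.31 (95% interval -0.01 to 0.63; limma adjusted p = 0.239). IQOS minus CS was -0.30 (adjusted p = 0.198), so the 2 exposures were not told apart for Sgk1.

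Among the target genes that encode regulators of transcription, none passed in IQOS. Tsc22d3, known as GILZ, an anti-inflammatory leucine zipper protein, measured 6.11, 5.71 and 5.39 in IQOS lungs, 6.03, 5.63 and 5.59 in CS lungs, and 5.10, 5.66 and 5.44 in air lungs. All 3 groups overlapped, and IQOS minus air was 0.34 ± 0.22 (SE; limma adjusted p = 0.393), with CS minus air at 0.35. Its dimmer probe gave 0.36 for IQOS minus air and 0.62 for CS minus air.

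Zbtb16, a zinc finger repressor that glucocorticoids induce strongly in many cells, had the largest spread within the air group. It measured 4.78, 4.86 and 4.05 in IQOS lungs, 4.76, 4.35 and 3.86 in CS lungs, and 3.32, 4.72 and 4.09 in air lungs. Air replicate 2 was close to the upper exposed arrays and air replicate 1 was the lowest of all 9. IQOS minus air was 0.52 (95% interval -0.37 to 1.42; limma adjusted p = 0.467), and CS minus air was 0.28, which became -0.08 without air replicate 1. The second Zbtb16 probe gave 0.47 for IQOS minus air and 0.27 for CS minus air.

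Klf9, a zinc finger transcription factor induced by stress hormone, measured 3.78, 3.74 and 3.28 in IQOS lungs, 3.84, 3.57 and 3.41 in CS lungs, and 3.31, 3.48 and 3.58 in air lungs. The groups overlapped, and IQOS minus air was 0.15 (95% interval -0.23 to 0.52; limma adjusted p = 0.639), with the same 0.15 for CS minus air.

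The signalling brakes also overlapped between groups. Dusp1, a phosphatase that switches off MAP kinases, measured 5.59, 5.37 and 4.94 in IQOS lungs, 5.54, 5.17 and 5.59 in CS lungs, and 5.05, 5.30 and 5.06 in air lungs. Its IQOS minus air difference was 0.16 (limma adjusted p = 0.634) and its CS minus air difference 0.30. Errfi1, an inhibitor of the epidermal growth factor receptor, measured 5.73, 5.51 and 5.04 in IQOS lungs, 5.77, 5.24 and 5.24 in CS lungs, and 5.33, 5.68 and 5.66 in air lungs. Errfi1 gave -0.13 for IQOS minus air (limma adjusted p = 0.76) and -0.14 for CS minus air.

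Pdk4, a kinase that limits glucose oxidation by inhibiting pyruvate dehydrogenase, had differences from air of opposite sign in IQOS and CS, neither past the threshold. It measured 1.78, 1.60 and 2.37 in IQOS lungs, 1.33, 1.08 and 0.64 in CS lungs, and 1.1, 1.75 and 1.25 in air lungs. All IQOS values were above all CS values, and air replicate 2 lay within the IQOS range. IQOS minus CS was 0.90 ± 0.26 (SE; 1.87-fold; limma adjusted p = 0.0685), which did not pass, although it passed with another background correction (0.87, adjusted p = 0.048). IQOS minus air was 0.55 (adjusted p = 0.27) and CS minus air was -0.36.

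**Figure D2:**
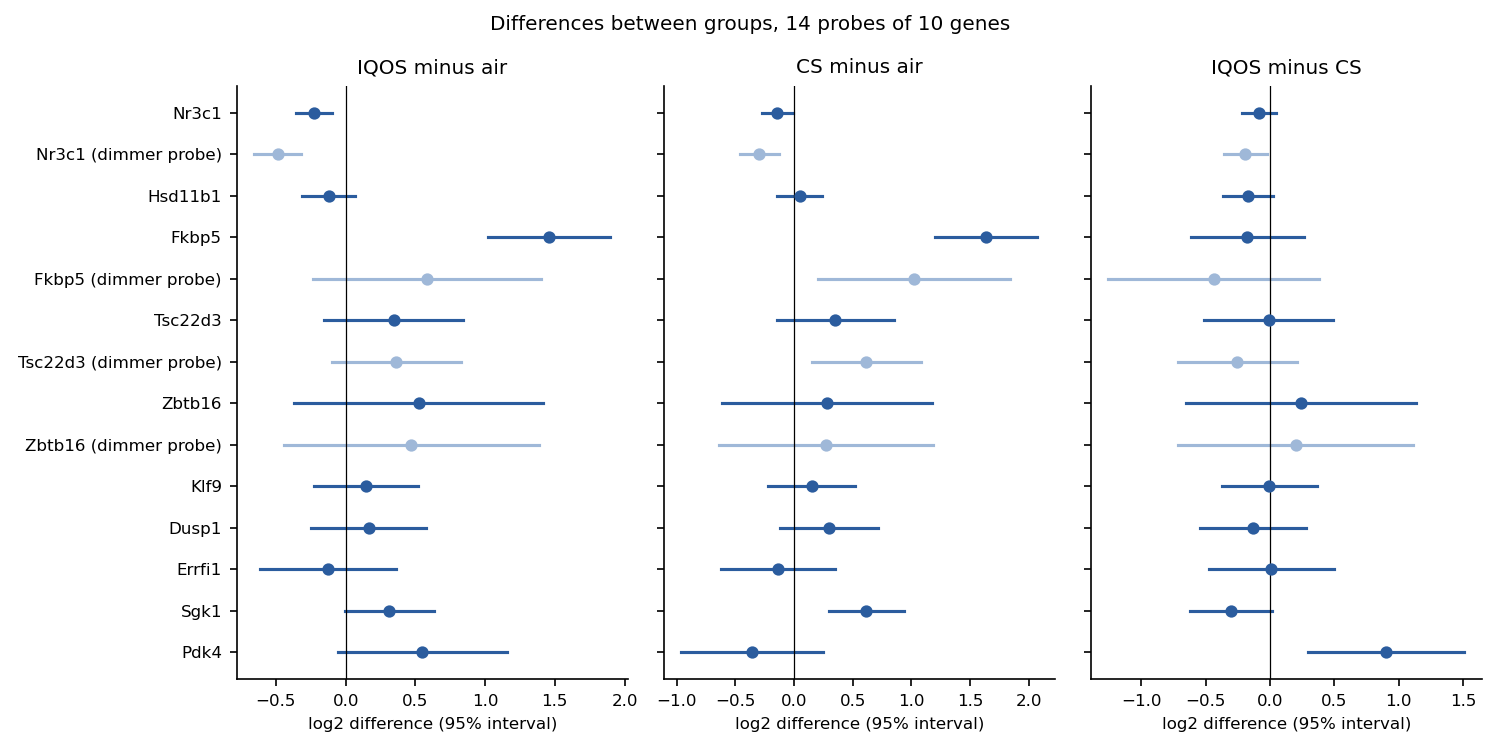
Log2 difference (x axis) for the 14 probes of the 10 genes (y axis) in IQOS minus air, CS minus air and IQOS minus CS. Points are limma estimates over 9 arrays, bars are 95% intervals, and pale symbols are the dimmer probes of a gene. Only Fkbp5, at 1.46 and 1.64 on its brighter probe, lies beyond 1 with its whole interval.

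By count, 1 of the 10 genes was called higher in IQOS than in air (Fkbp5) and none lower. Over all 16593 genes tested, 2.87% were called in this comparison, 1.99% higher and 0.886% lower. The median of the 10 genes was 0.24, against -0.01 over all genes tested. In CS minus air, the contrast known when the genes were chosen, 2 of 10 were called higher (Fkbp5 and Sgk1) and none lower. There 11.7% of all genes were called, 5.6% higher and 6.12% lower, and the median of the 10 was 0.22 against -0.02. Sgk1 lost its call without air replicate 1, air replicate 3 or any 1 of the CS arrays. With the array row in the fit, neither gene was called in CS minus air, at 1.59 for Fkbp5 and 0.64 for Sgk1. The row effect in that fit comes from the air group alone, so these losses cannot tell row from exposure. In IQOS minus CS none of the 10 was called by limma, and 1 (Pdk4) had an unadjusted p under 0.05. Over all genes tested, 29.3% had an unadjusted p under 0.05 and 10.1% were called, 4.94% higher and 5.18% lower. IQOS minus air shares its air arrays with CS minus air, and IQOS minus CS shares the CS arrays. The p-values of the 10 genes in these comparisons are therefore not independent of the choice of genes. All these counts are of the brightest probe of each gene. The dimmer Nr3c1 probe was called lower in IQOS minus air and in CS minus air.

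Within a group the 10 genes tended to be high or low on the same array. IQOS replicate 3 was the lowest IQOS array for 9 of the 10 genes, Pdk4 being the exception, while it was lowest for 35.7% of all genes tested. For Nr3c1 the deviations from the IQOS mean were only 0.01, 0.00 and -0.02. CS replicate 1 was the highest CS array for 7 of 10, against 37.4% of all genes. Air replicate 1 was the lowest air array for 8 of 10, against 26.5% of all genes, and air replicate 2 the highest for 8 of 10, against 39.7%. For Zbtb16 the deviations from the group mean reached -0.72 in air replicate 1 and 0.68 in air replicate 2. The other 38 genes of the induced list described next showed the same array as lowest for 22 in IQOS (replicate 3) and as highest for 21 in CS (replicate 1). In air they did not, with air replicate 1 lowest for 13 and air replicate 2 lowest for 17. The summed level of 9 heart muscle markers, in multiples of the 75th percentile signal, was 211.9, 199.3 and 296.1 in IQOS lungs, 199.6, 197.0 and 117.4 in CS lungs, and 161.1, 297.7 and 243.0 in air lungs. It was highest on IQOS replicate 3 and air replicate 2, and its part in the array pattern of the 10 genes was not tested.

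**Figure D3:**
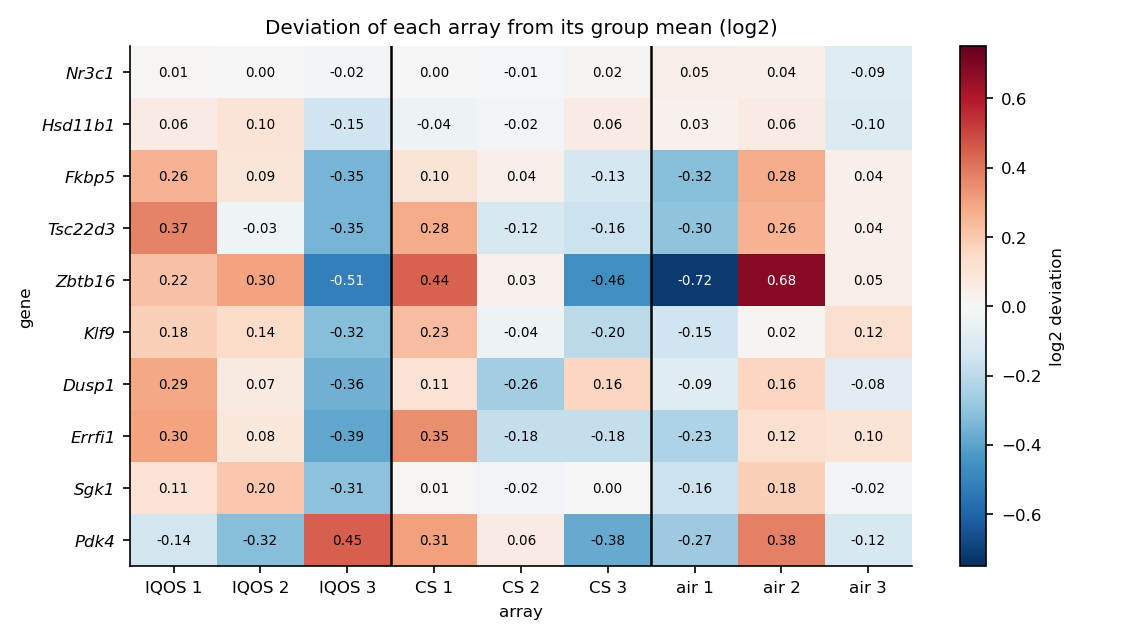
Deviation in log2 units of each array (x axis) from the mean of its group for each of the 10 genes (y axis), from red (above) to blue (below), with the value in each cell. IQOS replicate 3 is negative for all but Pdk4, at 0.45, and Zbtb16 spans from -0.72 to 0.68 in the air group.

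Of 38 further genes that glucocorticoids induce in some tissue, none was called in IQOS minus air by limma, 10 had an unadjusted p under 0.05 (as did 20.3% of all genes tested), and the list median was 0.13. With another background correction, or with a robust intensity trend, 2 were called higher. The lowest p in that comparison belonged to Glul, glutamine synthetase (0.22, adjusted p = 0.0595), and to Rasd1, a small GTPase induced by dexamethasone (0.78, adjusted p = 0.0612). Next were Tat, the liver enzyme tyrosine aminotransferase (0.51, adjusted p = 0.0831), and Il1r2, a decoy receptor for interleukin 1 (2.06, adjusted p = 0.104). In CS minus air 13 were called higher and 2 lower, with 5.6% and 6.12% of all genes so called, and the median was 0.24. With 1 array left out, 4 to 12 were called higher and 0 to 1 lower. The 13 became 4 without air replicate 1 or CS replicate 2, 6 without CS replicate 3, 8 without air replicate 2, air replicate 3 or CS replicate 1, and 2 with the array row in the fit. This list and those below were chosen with earlier results of these data known. Their counts and p-values are therefore a description and not an independent test.

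The metallothioneins Mt1 and Mt2, metal-binding proteins, had the smallest p of this list in CS minus air. Mt1 measured 6.04, 5.99 and 6.39 in IQOS lungs, 7.33, 7.45 and 7.46 in CS lungs, and 5.83, 5.68 and 5.85 in air lungs. CS minus air was 1.63 ± 0.11 for Mt1 (SE; limma adjusted p = 0.00174) and 1.55 ± 0.14 for Mt2 (adjusted p = 0.00315). Rasd1 rose in CS by 1.47 (adjusted p = 0.00655) and Lcn2, an iron-scavenging defence protein also made by neutrophils, by 1.85 (adjusted p = 0.00779).

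In IQOS minus CS, 1 of the 38 genes was higher and 6 were lower, and with the array row in the fit none was called. The 1 higher call was lost without CS replicate 2, CS replicate 3, IQOS replicate 1 or IQOS replicate 2. Mt1 differed by -1.27 (limma adjusted p = 0.00199), Mt2 by -1.56 (0.00199), Per2, a clock repressor, by -1.19 (0.0138), and Anxa1, an anti-inflammatory phospholipid-binding protein, by -0.81 (0.00414). Fkbp5, which measured at least 3.26 on every IQOS array and 3.65 on every CS array, showed no such difference past the threshold.

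The summed level of 12 macrophage markers was 206.9 to 232.4 in IQOS lungs, 339.0 to 417.4 in CS lungs, and 181.0 to 210.8 in air lungs, in multiples of the 75th percentile signal. Of these 12 markers, all well above background, 5 were called higher in CS than in air and none in IQOS. Chil3, the brightest of them, weighs most in the sum, with mean levels of 6.55 in IQOS, 7.67 in CS and 6.31 in air. Not all markers were higher in CS, Fabp4 being at -0.92 against air (limma adjusted p = 0.137). The summed level of 11 neutrophil markers was 184.6 to 434.1 in IQOS lungs, 338.1 to 746.2 in CS lungs, and 184.7 to 236.7 in air lungs. One neutrophil marker, Elane, was called in IQOS minus air (0.77, limma adjusted p = 0.0142), but not without air replicate 1 or air replicate 3. Elane differed from its list: it was highest on IQOS replicate 2 (0.70), where the summed level was lowest (184.6). In IQOS minus CS it was called higher (0.68), while the list median was -0.41. None of the 11 was called in CS minus air, where 5 had an unadjusted p under 0.05 (31.2% of all genes). The summed level of 8 B cell markers was 9.3 to 19.6 in IQOS lungs, 5.2 to 9.8 in CS lungs, and 12.3 to 25.1 in air lungs, with 3 called lower in CS, and none without air replicate 1, air replicate 3 or CS replicate 2. The summed level of 7 T cell markers was 19.8 to 26.9 in IQOS lungs, 17.4 to 21.9 in CS lungs, and 17.3 to 18.9 in air lungs, and Cd4 was called in IQOS minus air (0.66, limma adjusted p = 0.00543), though not on its second probe (0.41, adjusted p = 0.162). The summed level of 8 adipocyte markers was 61.9, 55.2 and 73.0 in IQOS lungs, 44.5, 53.6 and 36.2 in CS lungs, and 70.5, 64.3 and 51.6 in air lungs. It was highest on IQOS replicate 3 and lowest on CS replicate 3, as was Pdk4. In air lungs it was highest on replicate 1, where Pdk4 was lowest of the air arrays. The summed level of the heart muscle markers, given above, followed the order of Pdk4 within every group. None of the 8 adipocyte markers was called in any comparison by limma. An unadjusted p under 0.05 was found for 1 in IQOS minus air, 5 in CS minus air and 3 in IQOS minus CS. The part of these cells in the differences of the 10 genes and of the induced list was not tested.

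The receptor's partners were set against the shares over all genes tested, which apply to every list. Those shares were 2.87% called in IQOS minus air, 11.7% in CS minus air and 10.1% in IQOS minus CS. Of 16 heat shock proteins, cochaperones and cofactors, none was called in CS minus air. None of them had an unadjusted p under 0.05 there, against 31.2% of all genes. In IQOS minus air 1 of the 16 was called, and the same 1 in IQOS minus CS. That gene was Ep300, a histone acetyltransferase, which measured 0.37, 0.42 and 0.34 in IQOS lungs, 0.02, 0.01 and 0.07 in CS lungs, and -0.07, -0.05 and -0.11 in air lungs. Ep300 rose in IQOS against air by 0.45 ± 0.05 (SE; limma adjusted p = 0.00943; 0.0523 without air replicate 1). A second Ep300 probe gave 0.09 (adjusted p = 0.421). Some differences of like size did not pass, such as -0.52 ± 0.29 (SE; adjusted p = 0.328) in IQOS minus air for Hsp90aa1, a heat shock chaperone. Of 14 genes of steroid supply only 7 passed the filter on dim probes, and Hsd11b2, Serpina6, Srd5a2, Crh, Mc2r, Cyp11b1 and Cyp11a1 did not. In CS minus air 3 of the 7 were called lower, including the steroid 5-alpha-reductase Srd5a1 (-0.48, adjusted p = 0.0114), Abcb1a, an exporter of steroids (-0.40, adjusted p = 0.0325), and Pomc, the precursor of corticotropin (-0.36, adjusted p = 0.0464). The Abcb1a call was lost without any 1 of 5 arrays and the Pomc call without any 1 of 8, while Srd5a1 kept its call without any 1 array, but not with the array row in the fit (adjusted p = 0.116). For IQOS minus CS, Srd5a1 (0.41, adjusted p = 0.0171) and Abcb1a (0.48, adjusted p = 0.0187) were called higher and H6pd, which supplies the cofactor of Hsd11b1, lower (-0.33, adjusted p = 0.021). None of these 3 calls held with the array row in the fit, and each was lost without any 1 of 3 to 5 arrays. None of the 7 was called in IQOS minus air, and 2 had an unadjusted p under 0.05.

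The inflammatory genes that glucocorticoids repress differed mainly in CS. Of 16 tested, 7 were called higher in CS than in air and none lower, against none in IQOS minus air by limma, where none had an unadjusted p under 0.05 either. The chemokine Cxcl2 rose in CS by 1.96 (limma adjusted p = 0.00649), the chemokine Cxcl1 by 2.41 (0.00685), the cytokine Il6 by 2.34 (0.012; 0.0518 without air replicate 1), and the chemokine Ccl2 by 0.91 (0.0255; lost without any 1 of 5 arrays). The 7 calls became 3 without air replicate 1, CS replicate 2 or CS replicate 3, and 2 with the array row in the fit. In IQOS minus CS 5 of the 16 were called lower, among them Il6 at -2.47 (adjusted p = 0.00905) and Cxcl2 at -1.98 (adjusted p = 0.0051). With the array row in the fit 1 of the 16 was called lower, and neither Il6 (adjusted p = 0.112) nor Cxcl2 (0.238) passed. Of 13 lung epithelial genes that respond to glucocorticoid, 3 were called higher in CS than in air and none in IQOS, where none had an unadjusted p under 0.05. The 3 calls became 1 without any 1 of the air arrays, without CS replicate 2 or without CS replicate 3, and 1 gene was called lower without any 1 of the IQOS arrays.

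Glucocorticoid secretion follows the day, and several of the 10 genes are known to cycle, so the clock genes were read on the same arrays. Of 16 clock genes, 3 were called higher in CS than in air, among them Cry1 (0.97, limma adjusted p = 0.00552) and Bhlhe40 (1.09, adjusted p = 0.00784). None was called in IQOS minus air, and 1 had an unadjusted p under 0.05, but without air replicate 2 there were 1 higher and 3 lower calls. In IQOS minus CS 1 was higher and 3 were lower (2 and 5 without air replicate 2, and 1 lower without IQOS replicate 1 or IQOS replicate 3), Arntl, the core activator of the clock, being higher by 2.17 (adjusted p = 0.0436), a call lost without any 1 of 7 arrays.

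Arntl measured 0.11, 0.66 and 0.02 in IQOS lungs, -2.18, -2.16 and -1.36 in CS lungs, and -1.0, 0.74 and -1.47 in air lungs. Dbp, a clock output gene named here after its values were seen, measured 2.72, 2.67 and 3.53 in IQOS lungs, 4.19, 4.22 and 3.40 in CS lungs, and 4.73, 1.74 and 4.73 in air lungs. On both genes air replicate 2 stood apart from the other air arrays, and it was also the highest air array for Fkbp5, Sgk1, Tsc22d3 and Zbtb16. The labels used here give no time of day of collection, and the part of the clock in the differences of the 10 genes was not tested. Without air replicate 2 Fkbp5 remained called in IQOS and in CS. Leaving that array out does not match the groups for the clock. The other air arrays, at 4.73 and 4.73 for Dbp, lay above every IQOS and CS array, so the kept calls say nothing of the clock's part.

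**Figure D4:**
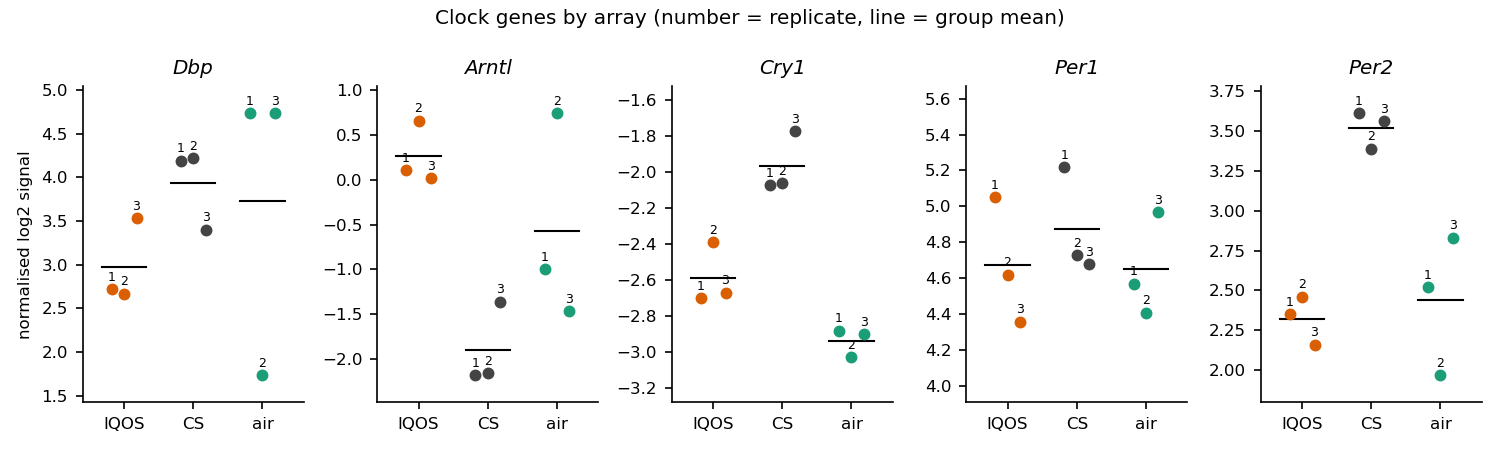
Normalised log2 signal (y axis, each panel with its own range) of the clock genes Dbp, Arntl, Cry1, Per1 and Per2 in IQOS, CS and air lungs (x axis). Each point is 1 array with its replicate number and each line is a group mean. Air replicate 2 is at 1.74 for Dbp and 0.74 for Arntl, against 4.73 and 4.73 for Dbp and -1.0 and -1.47 for Arntl in the other air arrays.

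The genes whose pattern over the 9 arrays was most like that of Fkbp5 were found by the root mean square difference of mean-centred log2 values among 16501 genes. Pmvk, an enzyme of the mevalonate pathway, was nearest at 0.26, with levels of 4.94, 5.08 and 4.65 in IQOS lungs, 5.70, 5.73 and 5.44 in CS lungs, and 3.70, 4.02 and 3.74 in air lungs. Next were E030044B06Rik (0.33), Rsph14 (0.34), Zc3h12a, a ribonuclease that degrades inflammatory transcripts (0.34), and Chrm3, a muscarinic acetylcholine receptor of airway smooth muscle (0.37). Among the other members of the set, Sgk1 ranked 140 by this measure, Tsc22d3 360, Zbtb16 784, Dusp1 1059 and Klf9 1738, while Hsd11b1 ranked 7071, Errfi1 9974, Nr3c1 12410 and Pdk4 13937. Genes high in both exposures rank near Fkbp5 by construction, and the arrays are shared, so these ranks are a description only.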

How the data were processed

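Total RNA of whole lung from 3 groups of 3 samples was measured on one-colour arrays. Per the file headers, the deposited spot intensity values came from Agilent Feature Extraction 10.7.1.1 as a background-subtracted, detrended signal with no normalization between arrays. The deposited value table gives a linear ratio to each array's 75th percentile, read from its values as the labels give no scale, with larger values for brighter spots and probes not centred. Its column medians were 0.114 to 0.121.

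Outlier and control spots were left out, spots of a probe were averaged as log2, and each array was scaled to its 75th percentile. Probes were named by unversioned accession through RefSeq genes, so that 32994 of 56605 (58.3%) got 1 symbol, none several. Tests covered probes measured on at least 2 arrays of each group and, in some group, well above background wherever measured (37258 probes, 16593 genes). Contrasts were fitted over all 9 arrays with limma 3.58.1 in R 4.3.3 and called at 0.05 after Benjamini-Hochberg adjustment over all probes, and the procedure was tested on simulated data. The brightest probe stands for a gene. Tables and figures used Python 3.11.15, pandas 2.3.3, numpy 2.4.6 and matplotlib 3.10.9. The planned mean signal column was not used, since the files give medians, which replaced it. No sequencing depth applies: signal over background and the number of arrays limit the precision.

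The members and lists were chosen with earlier results of these data known, and it is not recorded whether IQOS values entered the choice. All 10 members are named. From each list up to 4 genes with the smallest p per comparison, and all called genes where at most 5 were called, could be named, and the 5 genes most like Fkbp5. Alternatives covered background, normalization, filter, variance model, replicate block, array row, probe choice, threshold and each array left out. The values of some genes of the lists are not reported here.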

Additional observations from a re-analysis of the deposited data

How the results depend on the processing

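The members called in IQOS minus air numbered 1, and 2 with a robust intensity trend or an adjusted p under 0.1, and 0 to 1 with 1 array left out. Those in CS minus air numbered 2, and 1 with no filter on dim probes or a 2-fold minimum, 0 with the array row as covariate, and 1 to 2 with 1 array left out. Those in IQOS minus CS numbered 0, and 1 with normexp background or an adjusted p under 0.1, and 0 with any 1 array left out. Of 37258 probes, 1387 were called in IQOS minus air: 2608 with normexp, 780 with median centring, 356 with no filter, 540 with the replicate block, 287 with the row, 408 with only the arrays compared, 3281 at an adjusted p under 0.1, 95 with a 2-fold minimum and 124 to 1095 with 1 array left out. In CS minus air 3840 were called: 1541 with no filter, 311 with the row, 7098 at an adjusted p under 0.1, 575 with a 2-fold minimum and 725 to 3303 with 1 array left out. In IQOS minus CS 3590 were called: 1658 with no filter, 83 with the row, 1710 with only the arrays compared, 6523 at an adjusted p under 0.1, 440 with a 2-fold minimum and 1273 to 3214 with 1 array left out. Differences near 0 changed sign: Hsd11b1 in CS minus air to -0.0022 with quantile normalization, Zbtb16 in CS minus air to -0.0788 without air replicate 1 (-0.0788 to 0.6175 with 1 array left out), and Errfi1 in IQOS minus air to 0.0638 without IQOS replicate 3 (-0.2812 to 0.0638). In IQOS minus CS, with normexp, quantile normalization and the row, Tsc22d3 became 0.0615, 0.0437 and 0.0515 and Klf9 became 0.0724, 0.0400 and 0.1806. Errfi1 became -0.0796 with normexp and -0.0161 with median centring. With 1 array left out these ranged from -0.1966 to 0.1643 for Tsc22d3, -0.1013 to 0.1551 for Klf9, -0.1431 to 0.202 for Errfi1 and -0.2778 to 0.0463 for Dusp1. The causes of these changes were not tested, beyond the fewer arrays or probes some settings use. Replicate numbers did not pair the samples by the rule that every same-number correlation exceed 0.1 (0.0793, 0.201 and 0.168 between IQOS and air arrays, -0.0789, -0.0408 and -0.0625 between CS and air, and 0.132, 0.00938 and 0.161 between IQOS and CS). The replicate block changed no member's call, but the dimmer Nr3c1 probe lost its calls (adjusted p = 0.0522 in IQOS minus air). The slide as a block was not run, since IQOS fills its slide alone. No group of 3 is large enough to single out an array, and dim probes have wide intervals.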
